A study of Mus musculus with 17 samples.

Results

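The mitosis genes are a set of 42 genes whose products carry a cell through mitosis: the kinase and cyclins of mitotic entry, checkpoint and other mitotic kinases, the chromosomal passenger complex, spindle motors, kinetochore proteins, the cytokinesis machinery, and condensin with other chromosome proteins. They were named by gene symbol, and each of the 42 symbols was found once among the 38340 named genes of the deposited expression table. All 42 passed the filter on low values, at least 1 CPM (reads per gene scaled to library size) in at least 2 libraries, as did 14010 genes in all, which were tested.

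RNA was sequenced from spleens of CB57BL/6NCrl mice in 17 libraries. SLR10 and SLR14 are stem-loop RNAs that differ in the length of their stem, with 3 libraries each. Poly(I:C), a synthetic double-stranded RNA, and pppNS, whose name the labels do not explain, also have 3 libraries each. Controls were 2 libraries from mice that received the jetPEI delivery reagent as vehicle and 3 from untreated, naive mice. The labels give 1 injection text with every library: SLR RNA, 25 µg in 200 µl, complexed with in vivo-jetPEI at an N/P ratio of 8 and given intravenously. They do not say how poly(I:C) and pppNS were delivered, and age, sex and the time from injection to collection are not given in the sources used here. Nor do they state that each library is 1 mouse, so p-values below measure the spread between these samples.

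In a dividing cell, CDK1 bound to cyclin B drives entry into mitosis, the checkpoint kinases hold the cell until every chromosome is attached to the spindle, and separase then frees the sister chromatids. Transcripts of these genes peak in G2 and M phase. Their promoters are known for a cell cycle homology region, TTTGAA or TTCGAA, bound by the DREAM repressor complex in resting cells and by B-MYB and FOXM1 complexes in dividing ones, and for CCAAT boxes bound by NF-Y. The mouse spleen holds dividing erythroblasts in its red pulp as well as dividing lymphocytes, so bulk spleen RNA carries mitotic transcripts from several cell types.

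Most of the genes moved together across libraries, though not in every group. SLR14 library 2 and poly(I:C) library 2 each exceeded both other libraries of their group in 41 of the 42 genes. Cep55 was the exception, and the shares of all tested genes were 41.8% and 39.3%. In pppNS library 3, 27 genes did so, against 42.9% of all tested genes. Separately, most members with a known promoter share the same short elements close to the start site, and the promoters of 8 are shown. Whether these elements relate to the shared movement was not tested. Birc5, the gene of the widest range, holds neither the homology letters nor CCAAT. Each line gives the 150 bases upstream of the start site that RefSeq places on build GRCm38.p6, written 5′ to 3′ on the gene's strand. Capitals mark the 2 spellings of the cell cycle homology region given above and the letters CCAAT. They also mark an E2F-type element, searched as TTTCGCGC. Its other spelling, TTTGGCGC, was searched too, and all were searched on both strands. A CCAAT on the opposite strand reads ATTGG. The homology region there can read TTCAAA. Cdk1 carries all 3 kinds, Mki67 and Top2a several copies, Cenpe a CCAAT and no cell cycle homology letters, and Cep55 the homology letters and no CCAAT. RefSeq gives Cep55 a pair of start sites. The line is for the downstream one, and the 150 bases before the other hold none of these letters.
Cdk1 (chr10:69352913-69353062, minus strand): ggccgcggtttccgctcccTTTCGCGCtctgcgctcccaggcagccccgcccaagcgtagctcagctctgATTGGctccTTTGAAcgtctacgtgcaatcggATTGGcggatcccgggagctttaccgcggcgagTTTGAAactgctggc
Cdc20 (chr4:118437344-118437493, minus strand): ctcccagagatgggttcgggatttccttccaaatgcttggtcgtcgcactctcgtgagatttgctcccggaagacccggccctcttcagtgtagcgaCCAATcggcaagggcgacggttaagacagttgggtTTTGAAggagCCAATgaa
Espl1 (chr15:102296143-102296292, plus strand): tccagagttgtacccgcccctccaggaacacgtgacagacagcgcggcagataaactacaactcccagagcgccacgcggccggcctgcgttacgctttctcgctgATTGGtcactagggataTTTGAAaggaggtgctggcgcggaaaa
Kif11 (chr19:37376232-37376381, plus strand): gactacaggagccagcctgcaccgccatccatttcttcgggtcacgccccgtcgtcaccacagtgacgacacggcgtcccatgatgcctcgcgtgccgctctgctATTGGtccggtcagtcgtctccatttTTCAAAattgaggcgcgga
Mki67 (chr7:135716380-135716529, minus strand): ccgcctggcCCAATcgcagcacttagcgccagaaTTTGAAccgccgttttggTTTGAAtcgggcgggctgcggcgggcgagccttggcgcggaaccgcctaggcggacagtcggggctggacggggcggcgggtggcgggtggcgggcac
Top2a (chr11:99024190-99024339, minus strand): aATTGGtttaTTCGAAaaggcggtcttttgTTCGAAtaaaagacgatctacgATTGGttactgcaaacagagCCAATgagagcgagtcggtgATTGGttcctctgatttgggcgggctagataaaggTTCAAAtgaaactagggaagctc
Cenpe (chr3:135212413-135212562, plus strand): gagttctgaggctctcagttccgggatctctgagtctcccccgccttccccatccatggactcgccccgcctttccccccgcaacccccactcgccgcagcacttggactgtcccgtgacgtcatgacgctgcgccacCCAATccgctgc
Cep55 (chr19:38054891-38055040, plus strand): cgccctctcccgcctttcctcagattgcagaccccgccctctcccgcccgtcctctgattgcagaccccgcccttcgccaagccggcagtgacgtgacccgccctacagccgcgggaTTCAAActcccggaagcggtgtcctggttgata

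RefSeq windows from 250 bases before to 50 bases after the start were found for 35 of the 42 genes. The letters TTTGAA or TTCGAA occurred in 28 of these 35 (80.0%), against 21.7% of 27025 mouse genes with such windows. CCAAT occurred in 25 (71.4%, against 41.1%), and the E2F-type letters in 2 (5.71%, against 0.929%). Both of the first elements were present in 23 genes, the homology letters alone in 5, CCAAT alone in 2 (Ccnb1 and Cenpe), and neither in 5 (Mad2l1, Birc5, Nusap1, Nuf2 and Ncaph). Among 43 further mitosis genes with a window, 67.4% held the homology letters, while 19.4% of 31 DNA replication genes and 22.2% of 18 erythroid genes did. A match is a run of letters and was not tested as a binding site. Windows were not used here for Ccna2, Aurkb, Incenp, Tpx2, Spc24, Kif20a and Smc4.

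Libraries held 26.5 to 42.8 M reads (median 30.9 M), of which 15.8 to 29.6 M lay in named genes, and 1 read was worth 0.0175 to 0.0431 CPM. A gene with no reads is therefore known only to lie below 0.0525 to 0.129 CPM, the value of 3 reads, and this covers counting error alone. Every member was far above that limit in every library. A panel of 6 interferon response genes summed to 1558 to 13295 CPM in the 12 RNA-treated libraries and 104 to 143 CPM in the 5 controls, so treated and control labels were separate.

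Libraries of the same group differed widely in these genes. The mean log2(CPM + 0.5) of the 42 genes was 4.56, 4.32 and 4.39 in the naive libraries, 3.66 and 3.78 after vehicle, 5.04, 5.51 and 5.90 after pppNS and 3.50, 3.37 and 3.24 after SLR10. After SLR14 it was 3.40, 5.96 and 3.35, and after poly(I:C) 3.22, 6.60 and 5.38. SLR14 library 2 and poly(I:C) library 2 were the highest of all, and poly(I:C) library 1 was the lowest, so 2 of the 4 RNA-treated groups hold both high and low libraries. SLR14 library 2 exceeded both of its mates in 41 of the 42 genes, as it did in 41.8% of all tested genes, and in 41 it was at least 2-fold above the mean of its mates, against 10% of all genes. Its ratio to that mean had a median of 6.74, from 0.807 for Cep55 to 12.9 for Mki67. The interferon panel was not low in its mates: the 3 SLR14 libraries summed to 8160, 13295 and 9574 CPM.

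Erythroid markers followed nearly the same order of libraries. Over 23 erythroid genes, the mean log2(CPM + 0.5) was 6.65, 5.88 and 6.80 in the naive libraries, 4.67 and 5.40 after vehicle, 7.43, 7.70 and 9.06 after pppNS and 4.85, 4.56 and 4.46 after SLR10. It was 4.75, 8.88 and 4.86 after SLR14 and 3.54, 9.45 and 8.28 after poly(I:C). Poly(I:C) library 2 ranked first and poly(I:C) library 1 last on both measures. The summed CPM of the 23 genes ran from 3167 to 4655 after SLR10, 4506 to 35216 after SLR14, 3870.0 to 44796 after poly(I:C), 9671 to 76502 after pppNS, 3423 to 4031 after vehicle and 4706 to 13393 in naive spleens. No erythroid marker in the table was at 0, the lowest being Rhd at 0.452 CPM in poly(I:C) library 1, and Ahsp and Epb42 were not found. Germinal centre B cell markers did not follow this order. Their 8 genes summed to 143 to 144 CPM after SLR10, 121 to 155 CPM after SLR14 and 81.0 to 132 CPM after poly(I:C). The sums were 66.7 to 77.5 CPM after pppNS, 69.1 to 75.3 CPM after vehicle and 48.3 to 102 CPM in naive spleens. The mean log2(CPM + 0.5) of these genes did not show the higher level after SLR10. It was 2.49, 2.34 and 2.29 after SLR10 and 2.53 and 2.42 after vehicle. After SLR14 it was 2.76, 2.73 and 2.31, and after poly(I:C) 2.34, 1.84 and 2.32. Lymphocyte markers of spleen were present throughout and were lower in the high libraries of the SLR14 and poly(I:C) groups than in the low ones. The 8 B cell genes summed to 1942, 1390 and 1932 CPM after SLR14 and 1761, 1238 and 1396 CPM after poly(I:C), and 10 T cell genes to 349.7, 237 and 373 CPM after SLR14 and 378, 315 and 289 CPM after poly(I:C). The pppNS group did not follow this: its B cell sums were 2044, 1925 and 2595 CPM and its T cell sums 520, 468 and 534 CPM. Both sums were highest in library 3, also the highest of that group for the mitosis genes. By mean log2(CPM + 0.5) this held for the T cell genes, at 5.49, 5.37 and 5.54. The B cell genes, at 7.76, 7.69 and 7.71, were highest in library 1. B cell sums were 1904 to 2069 CPM after SLR10, 2528 to 2551 after vehicle and 2641 to 2964 in naive spleens. T cell sums were 347 to 355, 481 to 567 and 482 to 651 CPM in the same order. Neutrophil precursor markers were high in several of the libraries that were high for the mitosis genes. The mean log2(CPM + 0.5) of 10 such genes was 2.41, 3.61 and 1.83 after SLR14, 2.12, 3.15 and 3.82 after poly(I:C), 2.97, 2.18 and 4.31 after pppNS, 3.03, 2.09 and 2.27 after SLR10, 2.37 and 2.49 after vehicle and 2.81, 3.10 and 2.64 in naive spleens. None of the 10 was at 0, and their part in the mitosis gene differences was not tested. In bulk spleen RNA, fewer dividing cells and less mitotic RNA per cell cannot be told apart.

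**Figure D1:**
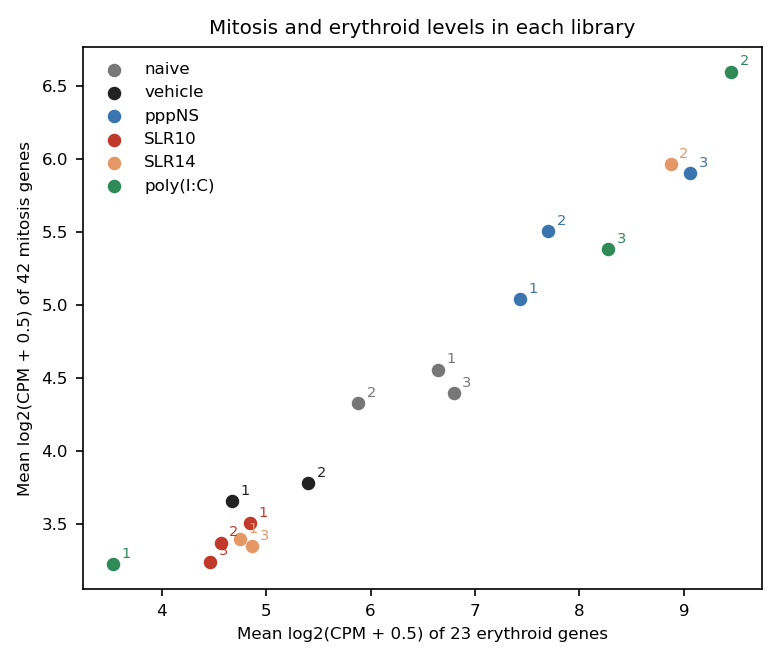
Each point is 1 library: the horizontal axis is the mean log2(CPM + 0.5) of 23 erythroid genes, the vertical axis the mean of the 42 mitosis genes, coloured by group and numbered by replicate. The 17 libraries share depth scaling and tissue, and both means run from poly(I:C) library 1 (3.54 and 3.22) to poly(I:C) library 2 (9.45 and 6.60).

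**Figure D2:**
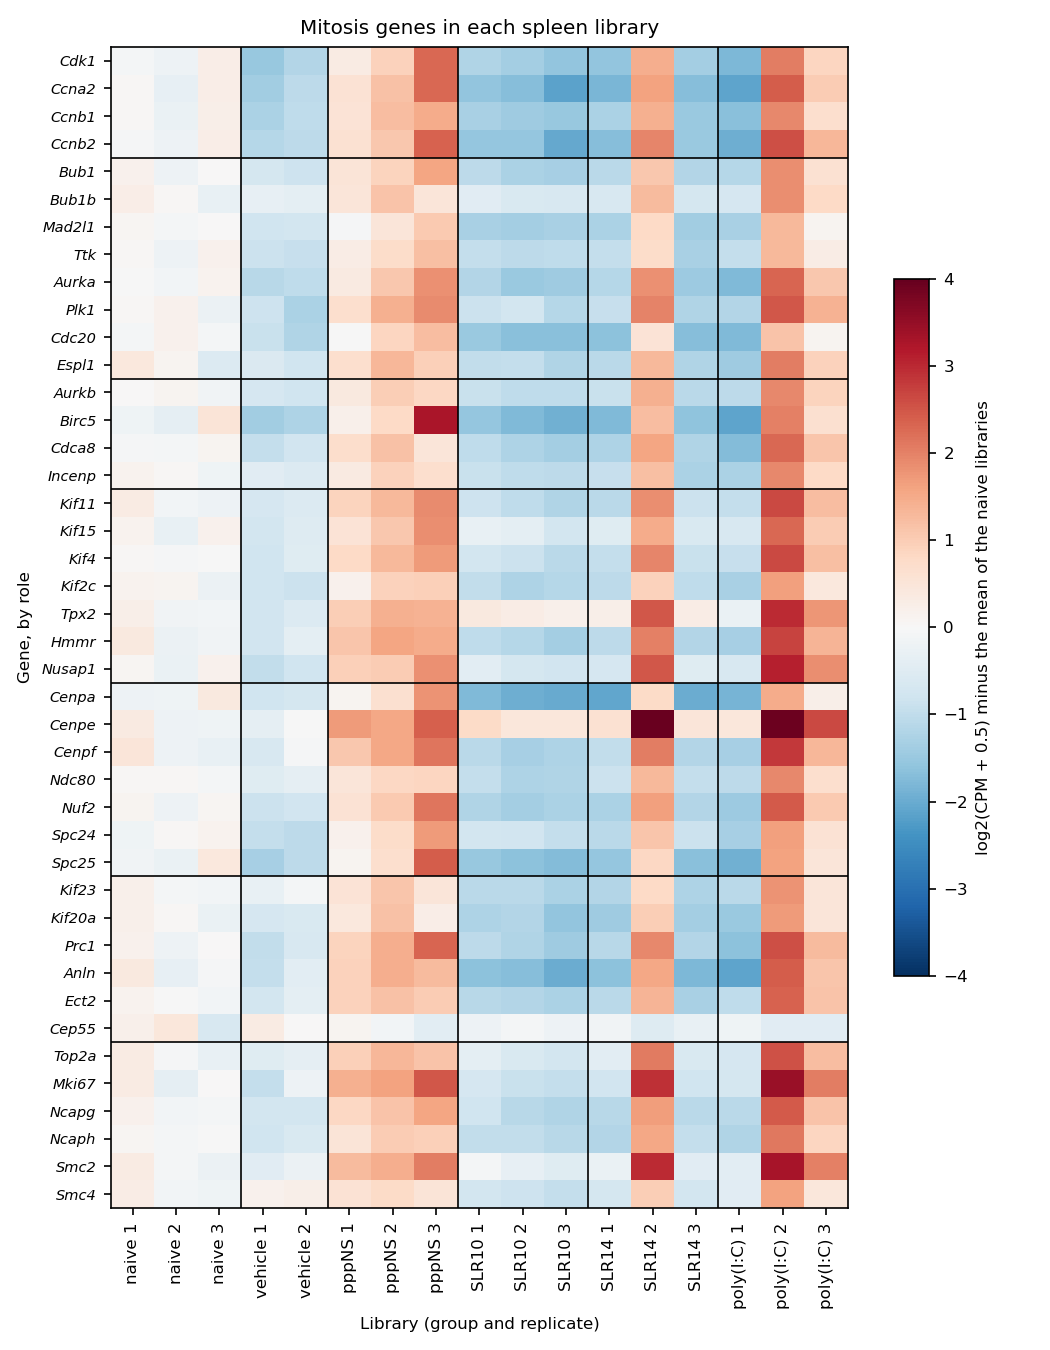
Rows are the 42 genes ordered by role, columns the 17 libraries, and colour is log2(CPM + 0.5) minus the naive mean, with the scale ending at -4 and 4. SLR14 library 2, poly(I:C) libraries 2 and 3 and the pppNS libraries are mostly red, the SLR10 libraries mostly blue, and Cep55 is pale in every library.

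Almost every member spanned a wide range. The highest library exceeded the lowest by 2.28-fold for Cep55, by a median of 13.8-fold over the 42 genes and by 43.5-fold for Birc5, and 41 of 42 spanned at least 5-fold, against 33.2% of all tested genes. Poly(I:C) library 2 was the highest library for 34 genes. The highest library was pppNS library 3 for 6 (Cdk1, Cdc20, Birc5, Cenpa, Spc24 and Spc25), SLR14 library 2 for Cenpe and naive library 2 for Cep55. Poly(I:C) library 1 was the lowest for 14 and SLR10 library 3 for 13. Per kilobase of annotated exon, mean levels in naive spleen were highest for Smc4 at 23.3 CPM per kb, Ccnb2 at 18.9 and Mki67 at 16.5, and lowest for Cenpf at 0.970.

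Mitotic entry was represented by Cdk1 and the cyclin genes Ccna2, Ccnb1 and Ccnb2. Cdk1 (chr10:69335146-69352938, GENCODE vM21 on GRCm38), the kinase that starts mitosis, stood at 31.0, 28.7 and 39.8 CPM in the naive libraries and 11.3 and 14.3 CPM after vehicle. With RNA treatment it stood at 14.0, 12.4 and 10.6 CPM after SLR10, 10.7, 90.7 and 12.5 CPM after SLR14, 9.06, 137 and 60.3 CPM after poly(I:C) and 40.9, 63.2 and 162 CPM after pppNS. SLR14 library 2, poly(I:C) libraries 2 and 3 and all pppNS libraries were therefore above every control, and the remaining treated libraries were near or below vehicle. Ccnb1, which encodes the cyclin B1 that activates CDK1, stood at 22.4, 17.9 and 25.8 CPM in the naive libraries and 8.71 and 10.6 CPM after vehicle. Treated libraries held 8.65, 7.86 and 7.27 CPM after SLR10, 8.80, 58.9 and 7.41 CPM after SLR14, 6.44, 83.9 and 35.2 CPM after poly(I:C) and 31.8, 52.1 and 61.9 CPM after pppNS. The same libraries were high as for Cdk1, and both vehicle libraries lay below all naive ones.

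Among the checkpoint and mitotic kinases and anaphase triggers, Bub1, a spindle checkpoint kinase at the kinetochore, had 13.6, 10.4 and 12.1 CPM in the naive libraries and 7.13 and 6.47 CPM after vehicle. Treated spleens gave 5.57, 4.69 and 4.46 CPM after SLR10, 5.43, 26.1 and 5.09 CPM after SLR14, 5.14, 44.997 and 18.4 CPM after poly(I:C) and 17.4, 22.5 and 36.6 CPM after pppNS. The SLR10 libraries lay below both vehicle libraries, and the pppNS libraries above every control. Plk1, the polo-like kinase needed for centrosome maturation and mitotic exit, had 18.7, 20.2 and 15.1 CPM in the naive libraries and 9.87 and 7.17 CPM after vehicle. Its treated values were 9.53, 10.5 and 7.81 CPM after SLR10, 9.11, 72.6 and 7.41 CPM after SLR14, 7.56, 103 and 48.0 CPM after poly(I:C) and 28.5, 48.7 and 66.9 CPM after pppNS. SLR10 and vehicle overlapped here, unlike for Bub1. The other 6 of this group, Bub1b, Mad2l1, Ttk, Aurka, Cdc20 and Espl1, spanned 6.04-fold (Bub1b) to 19.0-fold (Aurka) between their lowest and highest libraries.

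In the chromosomal passenger complex, which corrects faulty attachments and directs cleavage, Aurkb encodes the kinase. Its levels were 19.2, 20.6 and 17.4 CPM in the naive libraries and 11.8 and 10.7 CPM after vehicle, then 9.97, 9.23 and 9.11 CPM after SLR10, 9.99, 51.8 and 8.66 CPM after SLR14, 8.92, 74.2 and 36.0 CPM after poly(I:C) and 25.1, 38.0 and 33.8 CPM after pppNS. High and low libraries were those seen for Cdk1. Birc5, which encodes survivin, a subunit that recruits the complex to centromeres, had 35.9, 31.6 and 57.4 CPM in the naive libraries and 14.95 and 16.9 CPM after vehicle. In treated spleens it had 13.3, 11.5 and 10.2 CPM after SLR10, 11.5, 94.7 and 12.8 CPM after SLR14, 8.95, 164 and 63.1 CPM after poly(I:C) and 46.6, 71.0 and 389 CPM after pppNS. Among pppNS libraries, library 3 stood far above its mates, and library 1 lay within the naive range. Cdca8 and Incenp, the remaining subunits, were highest in poly(I:C) library 2 at 103 and 155 CPM.

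**Figure D3:**
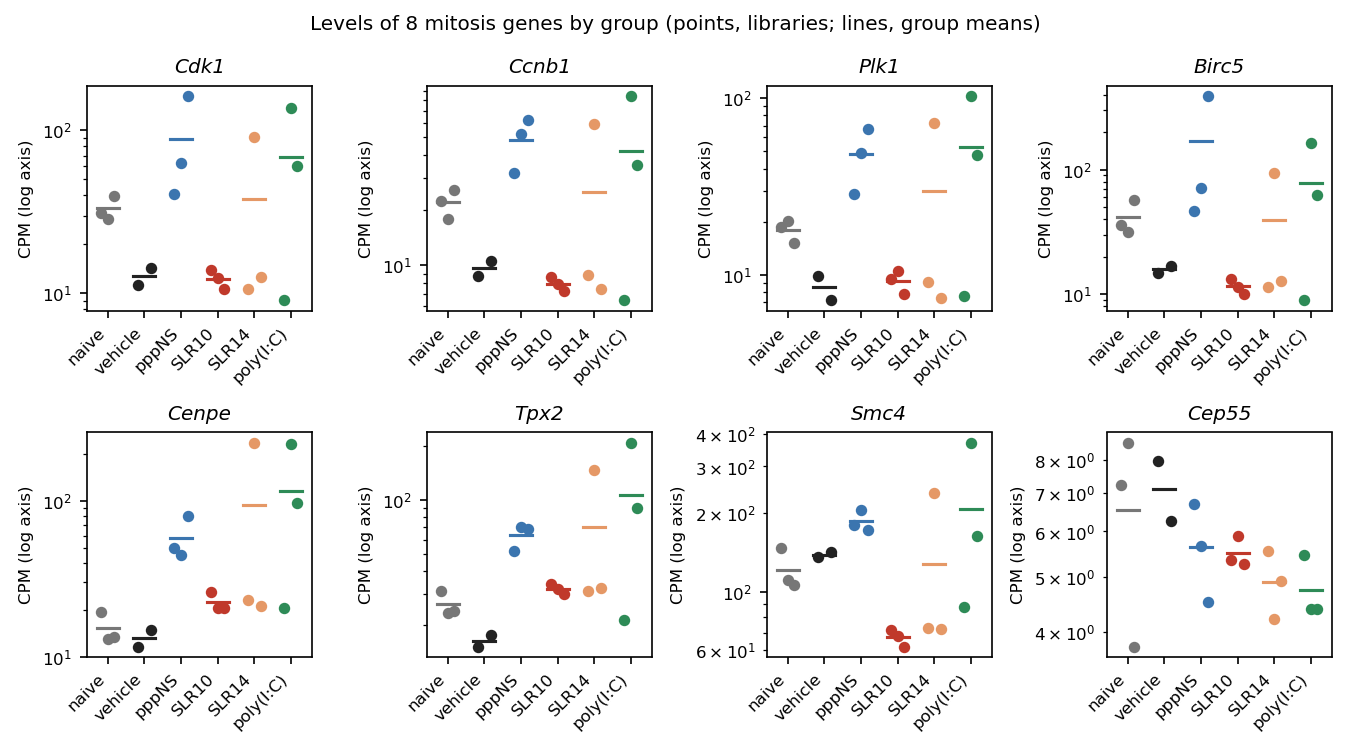
Points are libraries and lines group means, in CPM on a log axis, for 8 genes in the 6 groups. In 7 panels SLR14 and poly(I:C) split into high and low libraries, while Cep55 stays between 3.76 and 8.59 CPM throughout.

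The spindle genes cover motors and spindle assembly proteins. Kif11, the motor that pushes spindle poles apart, had 43.5, 32.5 and 29.98 CPM in the naive libraries and 21.8 and 23.7 CPM after vehicle. In treated spleens it had 19.6, 17.1 and 14.7 CPM after SLR10, 16.4, 129 and 18.8 CPM after SLR14, 17.8, 218 and 83.0 CPM after poly(I:C) and 65.4, 85.5 and 131 CPM after pppNS. Again the SLR10 libraries were below vehicle and the pppNS libraries above naive. Tpx2 (chr2:152847964-152895321), an activator of Aurora A on spindle microtubules, had 30.9, 23.5 and 24.1 CPM in the naive libraries and 15.2 and 17.6 CPM after vehicle. Treated libraries held 33.9, 31.9 and 29.7 CPM after SLR10, 30.9, 147 and 32.3 CPM after SLR14, 21.4, 207 and 89.7 CPM after poly(I:C) and 51.9, 70.1 and 69.0 CPM after pppNS. For this gene every SLR10, SLR14 and poly(I:C) library was above both vehicle libraries, including those that were low for Cdk1. The other 5, Kif15, Kif4, Kif2c, Hmmr and Nusap1, spanned 8.50-fold (Kif15) to 18.5-fold (Hmmr).

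Kinetochore and centromere genes build the attachment site of the chromosome. Ndc80, a microtubule-binding subunit of the outer kinetochore, had 11.6, 11.6 and 10.5 CPM in the naive libraries and 7.95 and 8.60 CPM after vehicle. Treated libraries had 5.50, 4.46 and 4.57 CPM after SLR10, 6.01, 28.1 and 5.60 CPM after SLR14, 5.17, 44.2 and 18.3 CPM after poly(I:C) and 16.1, 20.4 and 20.7 CPM after pppNS. SLR10 lay below vehicle, and the pppNS libraries lay above all controls. Cenpe (chr3:135212537-135273611), a kinetochore motor that moves chromosomes to the spindle equator, had 19.3, 12.9 and 13.3 CPM in the naive libraries and 11.6 and 14.8 CPM after vehicle. It had 26.0, 20.7 and 20.6 CPM after SLR10, 23.2, 237 and 21.1 CPM after SLR14, 20.5, 232 and 96.7 CPM after poly(I:C) and 49.8, 44.8 and 79.9 CPM after pppNS. As for Tpx2, each of the 9 libraries from the SLR and poly(I:C) groups exceeded both vehicle libraries. Cenpa, Cenpf, Nuf2, Spc24 and Spc25 spanned 9.35-fold (Spc24) to 23.8-fold (Spc25).

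For cytokinesis, Prc1, which bundles microtubules of the central spindle, had 29.97, 23.2 and 27.2 CPM in the naive libraries and 13.1 and 16.7 CPM after vehicle. It had 12.7, 11.2 and 9.65 CPM after SLR10, 12.1, 103 and 11.5 CPM after SLR14, 8.16, 161 and 64.6 CPM after poly(I:C) and 49.3, 74.5 and 137 CPM after pppNS. Levels in SLR14 library 2, poly(I:C) libraries 2 and 3 and all pppNS libraries exceeded every control. Anln, which encodes the contractile ring scaffold anillin, had 15.96, 9.55 and 11.7 CPM in the naive libraries and 6.03 and 8.92 CPM after vehicle. Treated spleens held 3.52, 3.35 and 2.66 CPM after SLR10, 3.52, 36.1 and 3.10 CPM after SLR14, 2.40, 67.5 and 26.5 CPM after poly(I:C) and 23.6, 34.0 and 30.01 CPM after pppNS. The SLR10 libraries lay below both vehicle libraries. Kif23 and Ect2, which position the cleavage furrow, and Kif20a spanned 8.84-fold, 13.9-fold and 10.7-fold. Cep55 (chr19:38055011-38074423), an abscission protein at the midbody, stood apart, and it was singled out after its values were seen. It had 7.24, 8.59 and 3.76 CPM in the naive libraries and 7.98 and 6.26 CPM after vehicle, and 5.35, 5.88 and 5.26 CPM after SLR10, 5.55, 4.22 and 4.91 CPM after SLR14, 5.45, 4.39 and 4.38 CPM after poly(I:C) and 6.70, 5.67 and 4.52 CPM after pppNS. Its groups overlapped, apart from vehicle against SLR10, SLR14 and poly(I:C), and its naive libraries included both its highest and its lowest value.

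Among chromosome structure genes, Top2a, the topoisomerase that untangles sister chromatids, had 111, 85.5 and 71.8 CPM in the naive libraries and 62.3 and 67.7 CPM after vehicle. In treated spleens it had 67.1, 57.7 and 52.6 CPM after SLR10, 66.0, 375 and 58.0 CPM after SLR14, 54.9, 520.2 and 206 CPM after poly(I:C) and 169.6, 219 and 193 CPM after pppNS. SLR10 overlapped vehicle for this gene. Mki67, the source of the proliferation antigen Ki-67 that coats mitotic chromosomes, had 205, 128 and 166 CPM in the naive libraries and 84.4 and 142 CPM after vehicle. It had 103, 88.1 and 84.0 CPM after SLR10, 96.2, 1228 and 93.6 CPM after SLR14, 100.8, 1789 and 671 CPM after poly(I:C) and 437, 504 and 921 CPM after pppNS. Vehicle overlapped both naive and SLR10. Smc4, a condensin ATPase subunit, had 147, 111 and 106 CPM in the naive libraries and 136 and 141 CPM after vehicle. Treated libraries held 71.7, 67.8 and 61.7 CPM after SLR10, 72.8, 238 and 72.2 CPM after SLR14, 87.7, 369.6 and 163 CPM after poly(I:C) and 180.3, 205 and 172 CPM after pppNS. Vehicle was not below naive for Smc4, and all SLR10 libraries were below every control. Smc2, Ncapg and Ncaph, the other condensin genes, spanned 14.1-fold, 13.2-fold and 10.5-fold.

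SLR10 against pppNS gave most of the differences that passed the test. Of the 42 genes, 29 were lower after SLR10 and none was higher at an adjusted p under 0.05 (limma on log2(CPM + 0.5), Benjamini-Hochberg over 14010 genes), against 19.9% of all tested genes called lower. The median difference was -2.10 on the log2 scale, 4.28-fold lower, against -0.04 over all genes, and the groups did not overlap in 41 genes, against 28.5% of all genes. By role, the genes that fell were 4 of 4 entry genes, 7 of 8 checkpoint and mitotic kinase genes, 1 of 4 passenger complex genes, 4 of 7 spindle genes, 5 of 7 kinetochore genes, 5 of 6 cytokinesis genes and 3 of 6 chromosome structure genes. Cdk1 averaged 12.3 ± 1.71 CPM after SLR10 and 88.6 ± 64.3 CPM after pppNS (SD, n = 3 each). It was lower by 5.91-fold (95% interval 1.61 to 21.6), with a limma adjusted p of 0.0320. Adjusted p-values of the 29 ran in limma from 0.0123 for Cdc20, the activator of the anaphase-promoting complex, to 0.0466 for Plk1. Birc5 had the largest difference, -3.18 ± 0.99 (log2 ± SE, limma adjusted p = 0.0211), followed by Ccna2 at -3.16 ± 0.99 (adjusted p = 0.0220 by limma). Smc4, the smallest difference to pass, was lower by 2.75-fold (95% interval 1.39 to 5.48). The smallest differences were -0.02 ± 0.24 for Cep55 (limma adjusted p = 0.961) and -0.98 ± 0.66 for Tpx2 (limma adjusted p = 0.243). Genes that did not pass were Bub1b, Aurkb, Cdca8, Incenp, Kif15, Tpx2, Nusap1, Cenpe, Spc24, Cep55, Top2a, Ncaph and Smc2. The erythroid list moved with this result: 12 of its 23 genes were lower, with a median of -3.62. With the erythroid mean as a covariate, 0 mitosis genes were lower and 1, Tpx2, was higher. That mean was itself 4.46 to 4.85 in the SLR10 libraries and 7.43 to 9.06 in the pppNS libraries, without overlap. The covariate fit therefore cannot tell the group from the erythroid level, and no conclusion is drawn from the lost calls. The main count of 29 became 8, 5 and 4 without SLR10 libraries 1, 2 and 3, 9 and 7 without pppNS libraries 2 and 3, and 0 with no filter on low values.

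**Figure D4:**
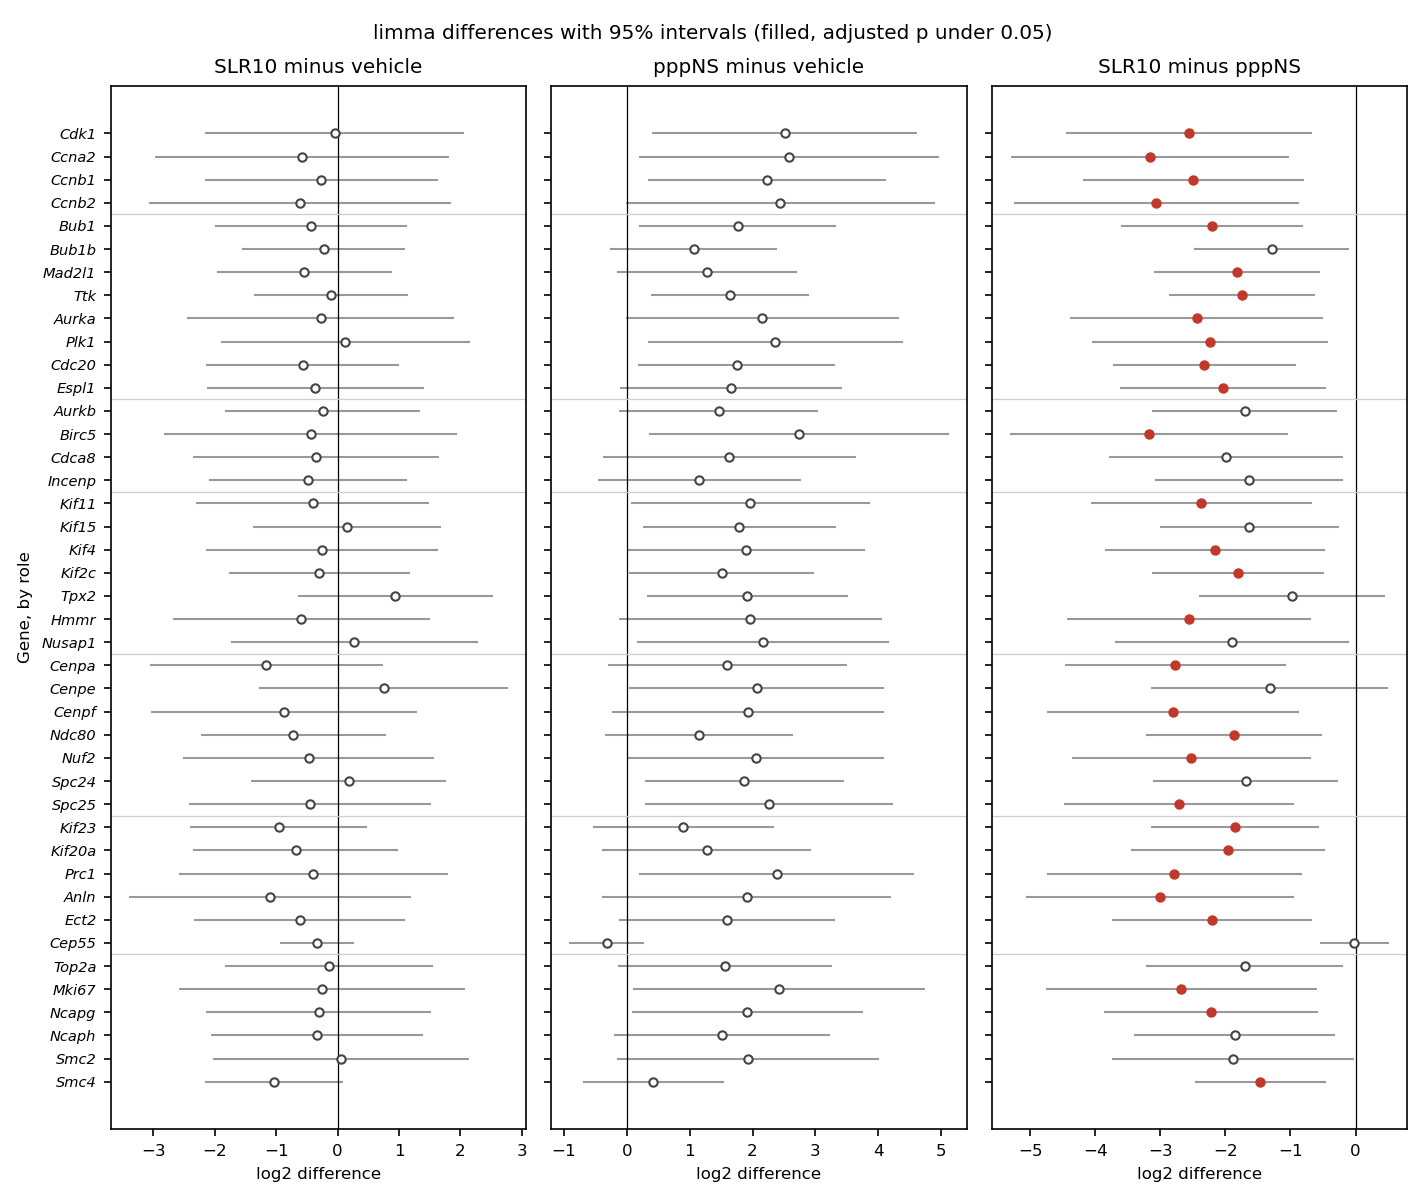
Points are log2 differences of the 42 genes with 95% intervals from limma, for SLR10 minus vehicle, pppNS minus vehicle and SLR10 minus pppNS, with filled points for adjusted p under 0.05. The 29 filled points all lie in the panel of SLR10 minus pppNS, to the left of 0.

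SLR10 against vehicle gave no mitosis gene past the threshold in either direction, against 39.4% of all tested genes called. No member had an unadjusted p under 0.05 in limma, and edgeR and DESeq2 also called 0. The median difference was -0.36, or 1.28-fold lower, and 31 genes lay below and 3 above vehicle without overlap, against 40.6% and 40.1% of all genes. The 3 were Tpx2, Nusap1 and Cenpe. Smc4 came nearest the threshold, averaging 67.1 ± 5.03 CPM after SLR10 (SD, n = 3) and 138 ± 3.95 CPM after vehicle (SD, n = 2). Its difference was -1.04 ± 0.52 (limma adjusted p = 0.130). Cenpa, the centromeric histone H3 variant, differed by -1.16 ± 0.88 (limma adjusted p = 0.332), and Tpx2 by 0.94 ± 0.74 (limma adjusted p = 0.352). The standard error of a member had a median of 0.86, against 0.26 over all genes. All 17 libraries share 1 estimate of the spread, and the SLR14 and poly(I:C) groups, with high and low libraries, enter it. Fitted on the SLR10 and vehicle libraries alone, 26 members were lower and 2, Tpx2 and Cenpe, were higher. The share of all genes called in that fit is not given here, so these counts are not read as particular to the mitosis genes. Between SLR10 and vehicle, limma called 0 of 23 erythroid markers, with a median of -0.41.

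Poly(I:C) against vehicle called 2 mitosis genes, both higher: Tpx2 at 2.14 ± 0.74 (log2 ± SE, limma adjusted p = 0.0345) and Cenpe at 2.52 ± 0.94 (limma adjusted p = 0.0495). Over all tested genes, 18.6% were called higher. The members' median was 1.396, against 0.07 over all genes, and only Cep55 had a negative difference, -0.54 ± 0.27 (limma adjusted p = 0.141). Nusap1, which links spindle microtubules, differed by 2.35 ± 0.93 without passing (limma adjusted p = 0.0631). The 3 genes whose poly(I:C) libraries all exceeded vehicle were Tpx2, Nusap1 and Cenpe, 3 of 42 against 33.4% of all genes. With the erythroid mean as a covariate, those 3 genes were called higher. The count rested on single libraries: it was 37 without poly(I:C) library 1, the low one, and 0 without poly(I:C) library 2 or 3 or either vehicle library. It was also 0 with no filter on low values, and 0 when only these groups were fitted. Shares of all genes called in these alternative fits are not given here. Among erythroid genes 1 of 23 was called higher, with a median of 2.04.

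Levels after pppNS were separate from vehicle in nearly every gene, with no call. In 41 of 42 genes all pppNS libraries were above both vehicle libraries, against 22.9% of all tested genes. The median difference was 1.88, or 3.69-fold higher. None of the 42 passed an adjusted p of 0.05 in limma, in a comparison that called 2.96% of all genes higher. At an unadjusted p under 0.05 limma counted 23 members, where 3251 of all 14010 tested genes also had such a value. Among the members edgeR called 0 and DESeq2 called 9 higher, and the last paragraph gives the DESeq2 calls over all genes. Birc5 averaged 169 ± 191 CPM after pppNS (SD, n = 3), with the highest library at 389 CPM and the lowest at 46.6. Its difference from vehicle was 2.74 ± 1.10 (limma adjusted p = 0.174). Ccna2, cyclin A2, differed by 2.58 ± 1.11 (limma adjusted p = 0.192), and Smc4 by 0.42 ± 0.52 (limma adjusted p = 0.600). Cep55 was the exception at -0.32 ± 0.27. The erythroid median was 3.15 with 0 of 23 called.

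Vehicle spleens had lower mitosis gene levels than naive spleens in 36 of 42 genes without overlap between the 2 vehicle and 3 naive libraries, against 27.6% of all tested genes. None passed the test: limma called 0, with 0 at an unadjusted p under 0.05, edgeR called 0 and DESeq2 called 0. In the whole table limma called 0.05% of genes. The median difference was -0.71, or 1.64-fold lower. Cdk1 averaged 12.8 ± 2.13 CPM after vehicle (SD, n = 2) and 33.2 ± 5.86 CPM in naive spleens (SD, n = 3), a difference of -1.34 ± 0.98 (limma adjusted p = 0.637). Smc4 had the highest difference, 0.21 ± 0.52 (limma adjusted p = 0.867). The erythroid median moved the same way, at -1.40 with 0 of 23 called.

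The 2 stem-loop RNAs were compared at the same labelled dose. No mitosis gene passed the test between SLR14 and SLR10 in limma (0 at an unadjusted p under 0.05), edgeR or DESeq2, and 0 of 14010 genes were called in limma, where 89 had an unadjusted p under 0.05. The intervals are wide: SLR14 minus SLR10 was 0.89 for Cdk1 (95% interval -0.98 to 2.77) and 1.28 for Mki67 (95% interval -0.78 to 3.35), so equal levels were not shown. The median over the 42 genes was 0.87, and -0.01 without SLR14 library 2. Smc4 and Ndc80 were the 2 genes whose libraries did not overlap, both higher after SLR14, against 4.54% of all genes.

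The remaining comparisons share these libraries, and SLR14 library 2 weighed on those with SLR14. Against vehicle, SLR14 gave 0 calls in limma, with 1 gene at an unadjusted p under 0.05, while limma called 38.7% of all genes in either direction. Among the members edgeR called 2 higher and DESeq2 3 higher, and their shares of all genes are not given here. The members' median was 0.54, -0.36 without SLR14 library 2 and -0.01 when scaled to reads in named genes, where the median of all genes was -0.50. Cenpe differed by 1.87 ± 0.94 (limma adjusted p = 0.138) and Tpx2 by 1.67 ± 0.74 (limma adjusted p = 0.0912). Against pppNS, SLR14 gave 0 calls in limma, with 5 genes at an unadjusted p under 0.05, while limma called 15.3% of all genes lower. Both edgeR and DESeq2 called 0 members. The median was -1.29, and without SLR14 library 2 it was -2.12 with 36 members called. Calls among all genes without that library are not given here. Poly(I:C) against pppNS gave 0 calls in limma, 0 at an unadjusted p under 0.05 and 0 in edgeR and DESeq2, with a median of -0.40. Of all genes, limma called 26.8% in either direction. Vehicle libraries enter 5 of the 9 comparisons and pppNS libraries 4, so the comparisons are not independent.

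Within the shared pattern a few genes shifted relative to the rest. They were singled out after their values were seen, as the log2 level of a gene minus the mean log2 level of the 42 genes in the same library. For Tpx2 this quantity ran from 1.10 to 1.69 in the 9 libraries of the SLR and poly(I:C) groups and from 0.22 to 0.67 in the other 8. For Cenpe it ran from 1.03 to 1.93 in the 9 libraries of the SLR and poly(I:C) groups and from -0.61 to 0.62 in the other 8. These ranges do not overlap, so Tpx2 and Cenpe stood higher relative to the other mitosis genes in every SLR or poly(I:C) library, whether its mean was high or low. Nusap1 ran from 0.97 to 1.57 in the 9 libraries of the SLR and poly(I:C) groups and from 0.39 to 0.97 in the other 8, with the ranges overlapping slightly at 0.97. Cenpa moved the other way, from -0.16 to 0.24 in the 9 libraries of the SLR and poly(I:C) groups and from 0.37 to 1.29 in the other 8. Birc5 in pppNS library 3 reached 2.70, against 0.52 and 0.65 in its mates. With the erythroid mean as a covariate in limma, Tpx2 was higher than vehicle by 1.15 after SLR10, 1.10 after SLR14 and 1.12 after poly(I:C). Cenpe was higher by 1.01, 1.15 and 1.22, and Nusap1 by 0.54, 0.61 and 1.02, in the same order. In that fit Cenpa, Kif23, Smc4 and Anln were lower after SLR10 and after SLR14, with Cenpa at -0.92 and -1.02. It used the libraries from which the shifted genes were picked, so it is not separate support for the shifts. Without the covariate, Tpx2 differed from vehicle by 0.94 after SLR10 (limma adjusted p = 0.352) and 1.67 after SLR14 (limma adjusted p = 0.0912). Shares of all genes called with the covariate are not given here.

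**Figure D5:**
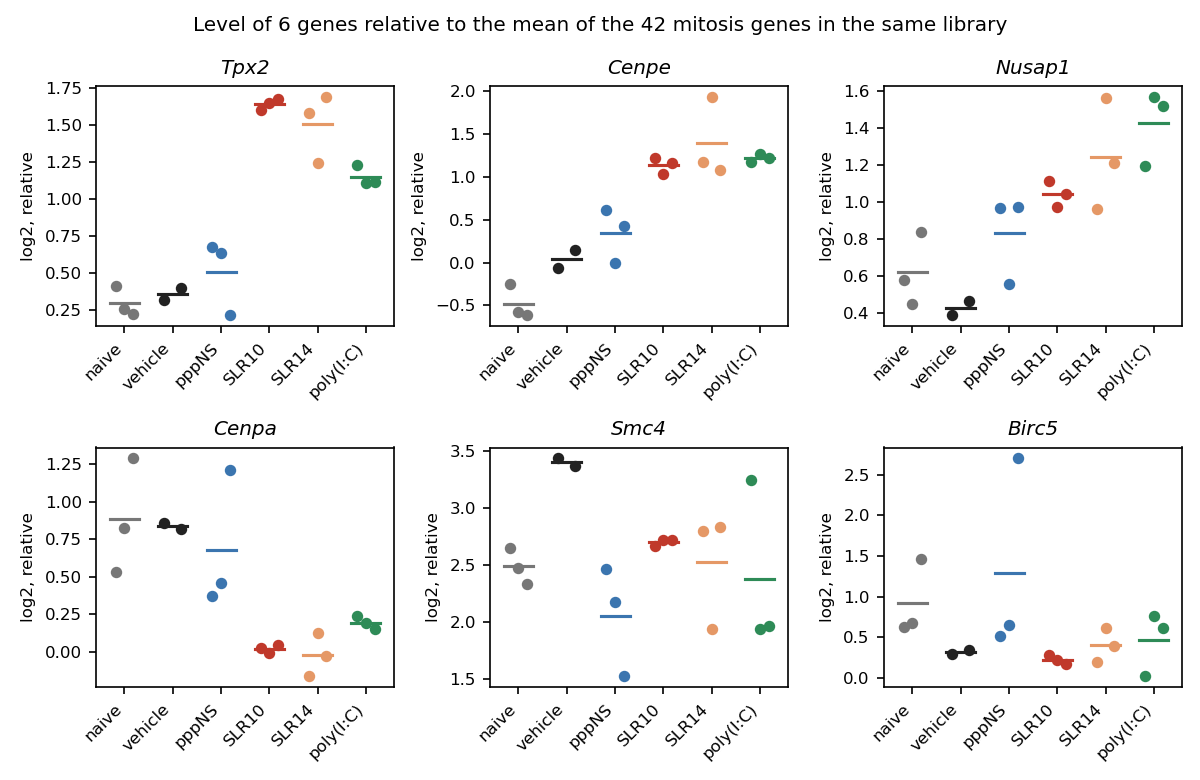
The vertical axis is the log2 level of each of 6 genes minus the mean of the 42 mitosis genes in the same library; points are libraries and lines group means. Tpx2 (1.10 to 1.69) and Cenpe (1.03 to 1.93) sit higher in the 9 libraries of the SLR and poly(I:C) groups than in the other 8.

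Other genes of the cell cycle gave the surroundings. Of 55 further mitosis genes, 30 were lower after SLR10 than after pppNS and none was higher, with a median of -1.95. Over all tested genes, 19.9% were called lower in that comparison. Against vehicle, 1 of the 55 was higher after SLR10, where 2825 of all 14010 tested genes were called higher. It was Nek2, a centrosome kinase, at 1.42 ± 0.34 (limma adjusted p = 0.00447). After poly(I:C) 5 of the 55 were higher than vehicle, against 18.6% of all tested genes. Of 40 DNA replication genes, 14 were lower and 1 higher after SLR10 than after pppNS (median -1.36). Relative to vehicle, SLR10 gave 3 higher and 0 lower, among them Rfc3, a clamp loader subunit, at 3.11 ± 0.23 (limma adjusted p = 2.47e-07). Poly(I:C) gave 8 higher, where 18.6% of all tested genes were called higher. Among 33 cell cycle regulators, 7 were higher and 3 lower after SLR10 than after vehicle. Of all 14010 tested genes, 39.4% were called in that comparison, 2825 higher and 2693 lower. Cdkn1a, which encodes the CDK inhibitor p21, was higher by 4.70 ± 0.35 (limma adjusted p = 2.86e-07), and Rbl1, which encodes the DREAM pocket protein p107, by 2.34 ± 0.18 (limma adjusted p = 3.82e-07). Ccnd2, cyclin D2, was higher by 2.67 ± 0.45 (limma adjusted p = 3.15e-04), while Cdkn1b, which encodes p27, differed by -1.09 ± 0.21 (limma adjusted p = 9.04e-04). Poly(I:C) against vehicle gave 8 higher and 2 lower in this list, SLR14 7 and 2, and pppNS 3 and 0. Over all 14010 genes these comparisons called 2606 higher and 2424 lower, 2702 and 2719, and 414 and 189. Cdkn1a was higher after poly(I:C) too, by 4.27 ± 0.35 (limma adjusted p = 6.11e-07), and after pppNS, by 2.45 ± 0.35 (limma adjusted p = 9.13e-04).

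The 42 genes lie on 16 chromosomes. Exons of 10 overlap another annotated gene, 9 of them on the opposite strand, and the overlap exceeds 10% of exon length for Ccna2, Kif4, Kif20a, Prc1 and Ncapg. The strand setting of the counting is not given in the sources used here, so reads in the overlapping part, 11.1% (Prc1) to 29.3% (Kif20a) of exon length, cannot be assigned to these 5 genes or their partners.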

How the data were processed

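Messenger RNA of mouse spleen was sequenced from stranded libraries made from 500 ng of total RNA. Per the submitters' processing notes, the authors used FastQC, TopHat2 2.0.6, SAMtools 1.4, HTSeq and edgeR, with builds GRCm38 and mm10. The deposited signal values are CPM normalised by the authors with edgeR, per the file header. Column sums ran from 696096 to 1484240, so they are scaled, and dividing by the value of 1 read gave whole reads for 100% of values (tolerance 0.01 reads). From 39184 lines, 5 without a gene name (28.1 to 46.1% of reads), 699 marked #N/D, 27 turned into dates and 113 repeated names were left out.

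All 17 libraries entered 1 limma model (limma 3.58.1, R 4.3.3) on log2(CPM + 0.5), which understates changes of low genes. A gene needed 1 CPM in at least 2 libraries. P-values were adjusted by Benjamini-Hochberg over 14010 genes in each of 9 comparisons, with a threshold of 0.05. edgeR 4.0.16 and DESeq2 1.42.0 on the whole reads, other pseudocounts, filters and scalings, a replicate block, an erythroid covariate and leaving out each library were alternatives. The limma step was tested on simulated data. The 42 genes and all lists were chosen with earlier results of these data known. Values in every library are given for 15 genes fixed by name, 2 or 3 per role, and each comparison may also name its largest and smallest differences and, in other lists, at most 4 genes of smallest adjusted p.

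Reads per library, 26.5 to 42.8 M, limit the precision of low members: Ttk averaged 2.58 ± 0.116 CPM after SLR10 (SD, n = 3), where 1 read was worth 0.0291 to 0.0367 CPM, so counting error there was not below the spread between libraries. Replicate numbers showed no general pairing of libraries: deviations from the group mean correlated with a median r of 0.03 for equal numbers and -0.03 for different ones. A median cannot show whether some of the libraries shared a batch.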

Additional observations from a re-analysis of the deposited data

How the results depend on the processing

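The counts of mitosis genes past the threshold depended on how the spread was estimated and on single libraries. Shares of all genes called in the same settings are not given in this paragraph, so its counts describe the members alone. For SLR10 against pppNS the count of 29 became 0 with no filter and 1 with the erythroid covariate, and ran from 4 to 30 when each library was left out. For SLR10 against vehicle the count of 0 became 28 when only those groups were fitted, 7 with the erythroid covariate, 1 when rescaled to reads in named genes and 1 with quantile scaling. For SLR14 against vehicle, 0 became 3 with DESeq2, 2 with edgeR, 7 with the covariate and 1 (Cep55, lower) when rescaled to reads in named genes. For poly(I:C) against vehicle, 2 became 28 with DESeq2, 1 with a filter at 5 CPM, 1 with a pseudocount of 2, 0 with no filter and 0 when only those groups were fitted, and ran from 0 to 37 when each library was left out. Rescaled to reads in named genes it was 1, with both Tpx2 and Cenpe lost and Cep55 called lower instead. The count for pppNS against vehicle went from 0 to 9 with DESeq2, and poly(I:C) against pppNS from 0 to 4 with the covariate. SLR14 against pppNS went from 0 to 5 with the covariate, 4 when rescaled to reads in named genes and 1 with quantile scaling, and ran from 0 to 36 when each library was left out. In the other comparisons leaving out a library kept the count at 0.

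With the replicate number as a block, SLR14 against pppNS went from 0 to 2 and SLR10 against pppNS from 29 to 37, with the counts of the other comparisons as before. Of 40 pairs of libraries with equal numbers, 15 had deviations correlated above 0.1, as did 27 of 80 pairs with different numbers. Correlations for equal numbers ran from -0.52 to 0.80. The numbers thus showed no general pairing, and a batch shared by some of the libraries was not tested. Apart from what these settings are built to change, the cause was not tested.

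Rescaling to reads in named genes lowered the median of all genes to -0.52 for poly(I:C), -0.50 for SLR14, -0.49 for SLR10 and -0.33 for pppNS, each against vehicle, from 0.07, 0.04, -0.01 and 0.01. Relative to it, the members' median for poly(I:C) was 1.32, against 1.33. That scaling also moved the share of calls that were higher among all genes, from 51.2% to 21.6% for SLR10 against vehicle, from 50.6% to 30.6% for SLR10 against pppNS, from 49.8% to 18.5% for SLR14 against vehicle, from 53.3% to 27.3% for SLR14 against pppNS, from 51.8% to 16.7% for poly(I:C) against vehicle, from 57.5% to 24.5% for poly(I:C) against pppNS and from 68.7% to 34.4% for pppNS against vehicle. Quantile scaling gave 39.2% for poly(I:C) and 53.6% for pppNS, each against vehicle. Among all genes, the 603 calls for pppNS against vehicle became 1398 with DESeq2 and 0 when only those groups were fitted.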
